A study of Homo sapiens with 4 samples.

Results

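The genes described here encode the integrins, which are the receptors that anchor cells to the matrix around them, and the laminins, which are matrix proteins that integrins hold. They were chosen by name, as the protein-coding genes whose symbol is ITGA, ITGB, LAMA, LAMB or LAMC with a number or a letter. In GENCODE release 29 these were 38 of 19951 protein-coding genes, comprising 26 integrin and 12 laminin genes. ITGA2B, whose symbol has a number and a letter, was counted as a member. Genes under the KEGG row for complement and coagulation were to be left out, and 0 members stood there.

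The cells were HepG2 and Huh7, established lines grown from human liver tumours. After removal of ribosomal RNA, sequencing gave 1 library for each of 4 groups, which were untreated HepG2 (A), treated HepG2 (B), untreated Huh7 (C) and treated Huh7 (D). The treatment was sonodynamic therapy (SDT), in which ultrasound was applied to cells given nanobubbles that carried lonidamine (LND, an inhibitor of tumour energy metabolism) and, by the study's text, the sensitizer HMME (hematoporphyrin monomethyl ether). The labels of groups A and C name no treatment. Treated cells received the nanobubbles, both agents and ultrasound together, so these cannot be told apart here, and each cell line stands for a single donor tumour grown in culture.

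For the comparisons B vs. A (HepG2) and D vs. C (Huh7), the authors deposited GO and KEGG tables of the differentially expressed mRNAs, which were called at an adjusted p-value under 0.05. A gene is termed listed in a cell line when its identifier stood under any GO term of that comparison. The tables hold no expression value, no direction of change and no depth, so a listed gene differed between the libraries in an unknown direction. A gene that was not listed may have been unchanged, too low to be called, not expressed, or called but without a GO term. The share of all protein-coding genes used below may thus include genes that could not be listed. The cell line labels could not be checked against marker levels. Without replicates, no count below has a replicate error and none was tested. Because listing is what the members were followed for, their counts are a description.

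An integrin is a pair of an α and a β subunit, and the pair decides which ligand is held. A laminin is a cross-shaped trimer of an α, a β and a γ chain, and laminins form the sheet of the basement membrane on which epithelial cells rest. Integrins join this sheet and other matrix proteins to actin through talin and kindlin, and pass survival and migration signals through kinases such as FAK and SRC. Healthy hepatocytes face little laminin, and liver tumour cells are known to meet and make more of it.

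In HepG2 19 of the 38 genes were listed (50%), against 23.9% of all protein-coding genes and 21.6% of the GO background of 22148 genes. In Huh7 18 were listed (47.4%), against 21.9% of protein-coding genes and 19.7% of the GO background. Both cell lines listed 10 of the genes, which was 52.6% of the members in the HepG2 list and 55.6% of those in the Huh7 list. For all protein-coding genes the shared part was 47.7% and 52.2% of the lists. Members in both lists were thus 26.3% of the 38, with 11.4% of protein-coding genes in both lists. In neither list stood 11 members (28.9%), compared with 65.7% of protein-coding genes.

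**Figure D1:**
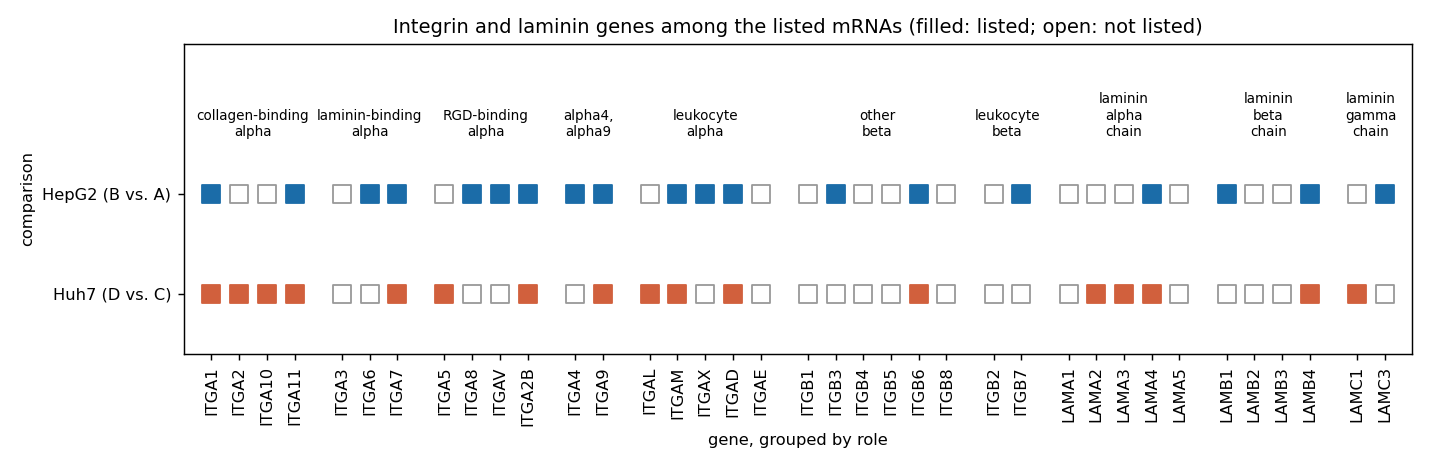
Each square is an integrin or laminin gene (horizontal axis, grouped by role) in a comparison (vertical axis), filled where the gene was listed and open where it was not, with 1 laminin gene not drawn. The 10 genes filled in both rows are ITGA1, ITGA11, ITGA7, ITGA2B, ITGA9, ITGAM, ITGAD, ITGB6, LAMA4 and LAMB4.

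The α subunits of integrins made up most of the listed members. In HepG2 12 of 18 α genes were listed (66.7%) and in Huh7 11 (61.1%), with 7 in both. Of the β genes, 3 of 8 (37.5%) were listed in HepG2 and 1 of 8 (12.5%) in Huh7. Among laminin genes, 4 of 12 (33.3%) were listed in HepG2 and 6 (50%) in Huh7, with 2 in both. No test of the gap between α and β genes was made, since genes are not replicates.

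**Figure D2:**
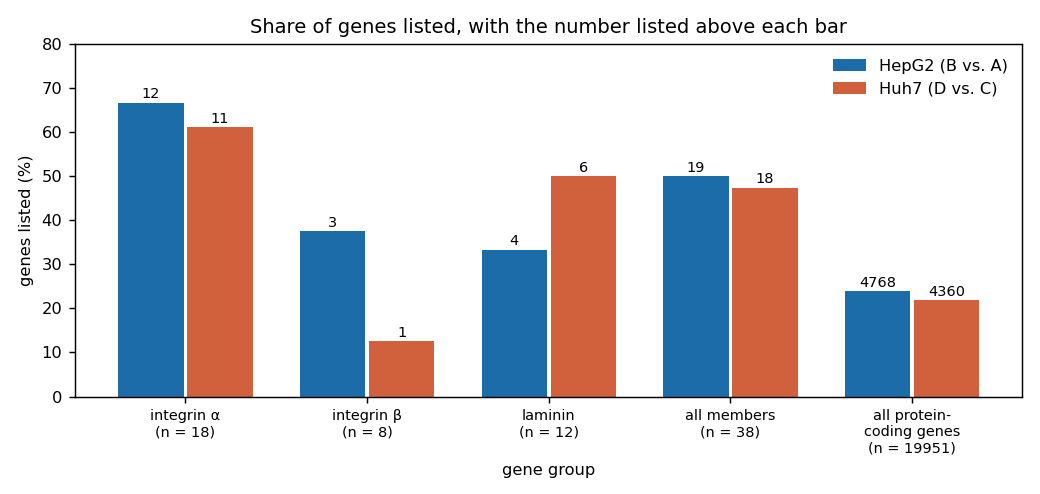
Bars give the percent of genes listed in each group of members and among all protein-coding genes for HepG2 (blue) and Huh7 (orange), with the number listed above each bar and the group size under it. The integrin α genes reached 66.7% and 61.1%, while the integrin β genes reached 37.5% and 12.5%.

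The collagen-binding α subunits were all listed in Huh7. ITGA1 and ITGA11 were listed in both lines, whereas ITGA2, a collagen receptor of epithelia and platelets, and ITGA10, a receptor of cartilage, were listed in Huh7 alone. These are the 4 α subunits that hold collagen, so Huh7 cells listed 4 of 4 and HepG2 cells 2 of 4. As both numbers rest on a set of 4 genes, the difference between the lines was not tested. The share of all protein-coding genes listed was 23.9% in HepG2 and 21.9% in Huh7.

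Among the 3 laminin-binding α subunits, ITGA7, best known from muscle, was listed in both lines. ITGA6, which pairs with β1 or β4, was listed in HepG2 only. ITGA3, the partner of β1 in many epithelia, was listed in neither. Thus HepG2 cells listed 2 of these receptor genes and Huh7 cells listed 1, with 23.9% and 21.9% of all protein-coding genes listed. On 3 genes this difference was not tested.

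The 4 α subunits that bind the RGD motif, a short peptide of fibronectin, vitronectin and fibrinogen, divided between the lines. ITGA2B, the platelet fibrinogen receptor subunit, was listed in both. ITGAV and ITGA8 were listed in HepG2 only, and ITGA5, the classical fibronectin receptor subunit, was listed in Huh7 only. Of the related pair that binds VCAM1, tenascin and other ligands, ITGA9 was listed in both lines and ITGA4 in HepG2 only. These sets are small and their split was not tested, with 23.9% of protein-coding genes listed in HepG2 and 21.9% in Huh7.

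Leukocyte integrins are best known from blood cells. Of the 5 leukocyte α genes, ITGAM and ITGAD were listed in both lines, ITGAX in HepG2 only and ITGAL in Huh7 only. ITGAE, the mucosal T cell subunit, was listed in neither. Their β partners were ITGB7, listed in HepG2, and ITGB2, the β subunit shared by ITGAL, ITGAM, ITGAX and ITGAD, listed in neither line. Without the 7 leukocyte genes, 15 of 31 members were listed in each cell line (48.4%). Of 12 leukocyte markers, 8 were listed in HepG2 and 4 in Huh7; PTPRC (the pan-leukocyte marker CD45), CD4, CD14 and CD68 were in both lists, and CD3D, CD3E and CD8A were among those in neither. Among markers of other cell types, 5 of 6 endothelial genes were listed in HepG2 and 4 in Huh7, 3 and 2 of 7 fibroblast genes, and 0 and 2 of 7 platelet genes. Of all protein-coding genes, 23.9% were listed in HepG2 and 21.9% in Huh7, and each marker list is small. These marker lists were drawn up after the member calls had been seen, the levels behind them are not known, and their part in the result was not tested.

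Among the β subunits, ITGB6, an epithelial subunit that pairs with αV and is known for activating TGF-β, was the only one listed in both lines. ITGB3 and ITGB7 were listed in HepG2 alone. ITGB1, which pairs with more α subunits than any other β subunit, was listed in neither line. ITGB5 and ITGB8, both partners of αV, and ITGB4, the hemidesmosome subunit, were also listed in neither.

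Because an integrin works as a pair, the calls were set on the 24 known pairs. In HepG2 both subunits were listed for 4 pairs, namely αVβ3, αVβ6, αIIbβ3 and α4β7. Of these, αVβ3, αVβ6 and αIIbβ3 rest on ITGB3 or ITGB6, whose sequence is partly shared with other gene models (49.5% and 83.7% of 75-base stretches were unique), and without these β genes 1 pair, α4β7, was left. In 14 pairs the α subunit alone was listed, in 1 pair the β subunit alone, and in 5 pairs neither. In Huh7 0 pairs had both subunits listed, 11 had the α subunit alone, 1 had the β subunit alone and 12 had neither. No count or test of reads stands behind the 0, which says only that the gene lists hold no such pair. It follows from the calls above, since ITGB6 was the only β gene listed in Huh7 and its partner ITGAV was not listed. Of the 12 pairs that use ITGB1, 8 had a listed α subunit in HepG2 and 7 in Huh7, with ITGB1 itself unlisted in each. For scale, both genes were listed in 6.5% (HepG2) and 5.78% (Huh7) of 19911 pairs of protein-coding genes adjacent in the genome.

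**Figure D3:**
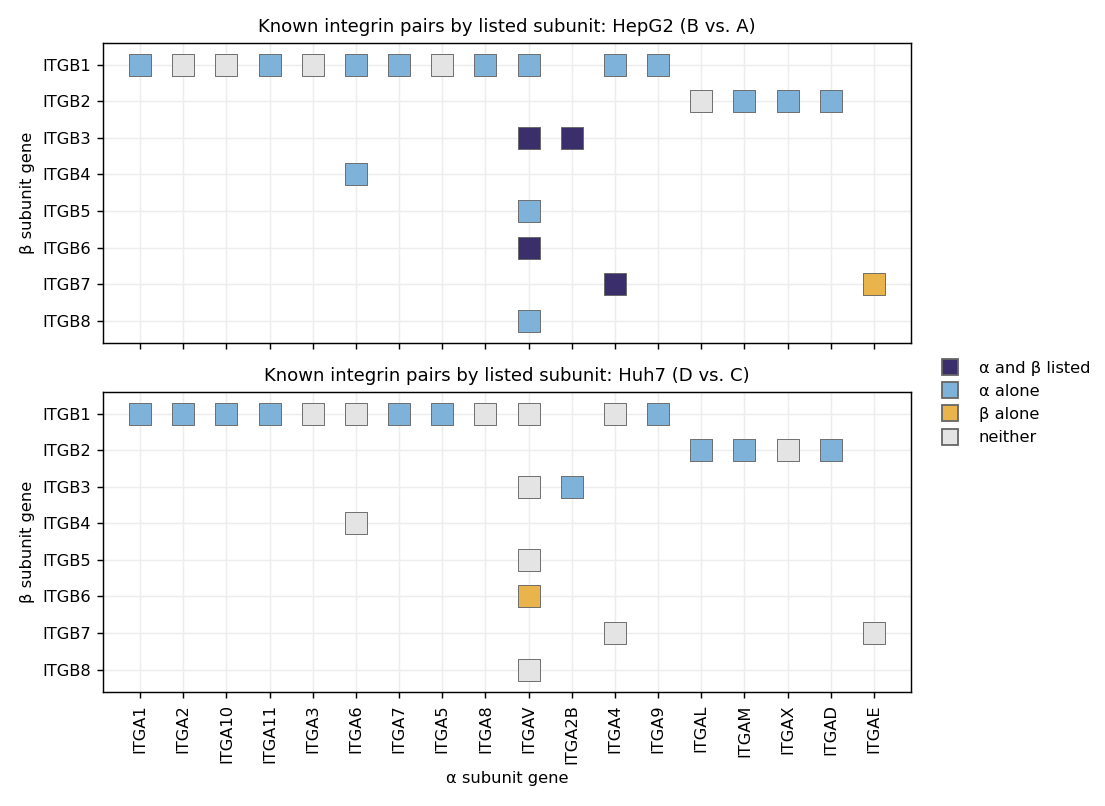
Each square is a known integrin pair at its α gene (horizontal axis) and β gene (vertical axis), coloured by which subunit was listed in HepG2 (upper panel) or Huh7 cells (lower panel). Pairs with both subunits listed number 4 in HepG2 (1 without ITGB3 and ITGB6) and 0 in Huh7, and the ITGB1 row holds α calls only.

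Grouped by ligand, the 8 RGD receptors had at least 1 listed subunit in 7 cases in HepG2 and in 3 cases in Huh7. The order was the other way round for the 4 collagen receptors, with 2 in HepG2 and 4 in Huh7. The 4 laminin receptors gave 3 and 1, and the 6 leukocyte receptors gave 5 and 3. ITGAV takes part in 5 of the pairs, so its call in HepG2 alone enters the RGD number 5 times. A pair is also more likely than a single gene to hold a listed one. Of 19911 pairs of protein-coding genes adjacent in the genome, 8230 held at least 1 listed gene in HepG2 and 7560 in Huh7. The receptor classes are small, and the differences between the lines were not tested.

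Of the 8 laminin chain genes listed in either line, 2 were in both lists. This was 50% of the laminin genes in the HepG2 list and 33.3% of those in the Huh7 list. For all protein-coding genes the shared part was 47.7% and 52.2%. LAMA4, a chain of vascular and mesenchymal laminins, and LAMB4, a little studied β chain, were listed in both. LAMB1, a widely used β chain, and LAMC3 were listed in HepG2 only. LAMA2, the muscle and nerve chain, LAMA3, an epithelial chain, and LAMC1, the γ chain of most laminins, were listed in Huh7 only. LAMA1, LAMA5, LAMB2 and LAMB3 were in neither list.

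Across 14 known laminin trimers, 0 had all 3 chains listed in either line. In Huh7 this follows from the β calls above. LAMB1, LAMB2 and LAMB3 were not listed there, and LAMB4 is in no trimer of the set. In Huh7 7 trimers had 2 listed chains. Laminin-211, 221, 311, 321, 411 and 421 had 2 through LAMC1 and an α chain. In HepG2 3 trimers had 2 listed chains, namely laminin-213, 411 and 423, and 5 trimers had none. Laminin-411 was the only trimer with 2 listed chains in both lines, through LAMA4 and LAMB1 in HepG2 and LAMA4 and LAMC1 in Huh7.

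Some members lie next to each other in the genome, and 4 such neighbouring pairs were found, all on a common strand. In HepG2 both genes were listed in 3 of them, LAMB1 with LAMB4, ITGAM with ITGAX and ITGAX with ITGAD. In Huh7 both were listed in 1. Over all 19911 neighbouring pairs of protein-coding genes, both genes were listed in 6.5% in HepG2 and 5.78% in Huh7. This is not a like comparison, since members were themselves listed at 50% in HepG2 and 47.4% in Huh7, wherever they lay. The pairs of ITGAX with ITGAM and with ITGAD also share a gene, and an effect of position was not tested. Neighbours of a family share descent and are not independent genes.

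The authors' tables also give the genes listed under each term beside the genes of the background. Integrin complex held 17 listed genes of 33 in HepG2 (51.5%) and 13 in Huh7 (39.4%), of which 15 and 12 were the integrin genes above. The others were ITGBL1 in both lines and NPNT, a ligand of α8β1, in HepG2. Laminin complex held 1 of 8 genes (LAMB1) in HepG2 and 3 in Huh7, LAMA3 and LAMC1 among them. Basement membrane held 41 of 93 genes (44.1%) in HepG2 and 35 (37.6%) in Huh7. Integrin-mediated signaling pathway held 32 and 34 of 113 genes, or 28.3% and 30.1%. GO focal adhesion held 85 of 448 genes (19%) in HepG2, below the 21.6% of the GO background. In Huh7 it held 84 (18.8%), close to the 19.7% of the background.

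Terms that name a ligand differed in which members they held. Fibronectin binding held 11 and 12 of 29 genes, and its members were ITGA4, ITGAV and ITGB3 in HepG2 and 0 in Huh7. ITGA5, which Huh7 listed, was not among the genes of this term there. Collagen binding held 26 of 80 genes (32.5%) in HepG2 and 39 (48.8%) in Huh7, with 3 and 5 members. Laminin binding held 11 and 12 of 29 genes, with ITGA9 in both, ITGA6 in HepG2 and ITGA2 in Huh7. Hemidesmosomes are rivets that join basal epithelial cells to the basement membrane, and the term for their assembly held 4 of 12 genes in each line and none in common. The HepG2 genes were ITGA6, PLEC, COL17A1 and KRT5, and the Huh7 genes included LAMA3, LAMC1 and CD151. With 4 genes in each line this rests on few genes. Over all protein-coding genes 47.7% of the HepG2 list and 52.2% of the Huh7 list were shared.

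The KEGG pathway nearest to these families is ECM-receptor interaction, which held 41 of 87 genes (47.1%) in HepG2 and 38 (43.7%) in Huh7. In HepG2 these were 12 integrin, 4 laminin and 14 collagen genes and 11 others. In Huh7 they were 9 integrin, 6 laminin and 8 collagen genes and 15 others. The lines had 23 of them in common, which was 56.1% of the HepG2 genes and 60.5% of the Huh7 genes, and 8 of the 23 were members. This is not far from the 47.7% and 52.2% shared over all protein-coding genes. Outside the members, the shared genes included FN1 (fibronectin), SPP1 (osteopontin), DAG1 (dystroglycan) and VWF. Focal adhesion in KEGG held 67 and 61 of 207 genes (32.4% and 29.5%), and PI3K-Akt signaling pathway held 115 and 101 of 347 (33.1% and 29.1%). Beside these pathways, 23.9% of all protein-coding genes were listed in HepG2 and 21.9% in Huh7. In each of these pathways 16 genes in HepG2 and 15 in Huh7 were integrins or laminins, as the same members are counted in all 3 pathways. All listed members stood in both the GO and the KEGG table of their comparison. How many GO terms hold a member reflects how broadly it is annotated, with 13 for LAMB4 (ENSG00000091128), 123 for ITGB6 (ENSG00000115221) and 411 for ITGAV (ENSG00000138448).

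Around the members, 8 lists of partners with 138 entries were followed, of which 44 (31.9%) were listed in HepG2, 37 (26.8%) in Huh7 and 20 in both. Matrix ligands came first. Of 22 ligands other than laminin, 9 were listed in HepG2 and 11 in Huh7. FN1, SPP1, CCN2 and TGFBI were in both. The 3 fibrinogen chains FGA, FGB and FGG, made by hepatocytes and held by αIIbβ3 and αMβ2, were listed in Huh7 only, as were THBS1, TNC, TNXB and EDIL3, while FBN1, MFGE8, NPNT, TNN and TNR were listed in HepG2 only. VTN (vitronectin), another hepatocyte product, was in neither list. Of 12 ligands on cell surfaces, 6 and 4 were listed, with VCAM1, the ligand of α4β1, ICAM5, JAM2 and CDH1 (E-cadherin) in both and ICAM2 and JAM3 in the HepG2 list only.

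Of 18 partners of laminin in the basement membrane, 9 were listed in HepG2 and 7 in Huh7. The collagen IV chains COL4A1, COL4A5 and COL4A6 were in both lists. NID2 was listed in HepG2 and NID1 in Huh7, both nidogens that tie laminin to collagen IV. COL4A2, COL4A3, COL15A1 and COL18A1 were also listed in HepG2 only, and NTN4 and SPARC in Huh7 only. HSPG2 (perlecan) and AGRN (agrin) were in neither. Of 12 laminin receptors other than integrins, 5 were listed in HepG2 and 2 in Huh7. DAG1 and SDC2 were in both lists, SDC1 and SDC3 in the HepG2 list only, and BCAM and RPSA in neither. Of 9 hemidesmosome and tetraspanin genes, 3 and 2 were listed, with CD82 in both, PLEC and COL17A1 in HepG2 only and CD151 in Huh7 only.

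Partners inside the cell came last. Of 21 activators and inhibitors of integrins, 7 were listed in HepG2 and 5 in Huh7, with FERMT3, the blood cell kindlin, FLNC and TNS3 in both. DOK1, TNS1, TNS2 and TNS4 were listed in HepG2 only, and FERMT1, the epithelial kindlin, and APBB1IP in Huh7 only. The talins TLN1 and TLN2, FERMT2 and FLNA were in neither list. Of 20 linkers at adhesion sites, 2 and 3 were listed, namely PARVG in both, VCL (vinculin) in HepG2, and LPP and NEXN in Huh7. Of 24 kinases and switches, 3 were listed in each line, with NEDD9 in both, FYN and ROCK2 in HepG2 and SRC and YES1 in Huh7. PTK2 (FAK), PXN (paxillin), ILK, RAC1 and RHOA were in neither list. The linkers and the kinases were listed below the share of all protein-coding genes in both lines. The matrix ligands, the ligands on cell surfaces and the basement membrane partners were above it in both. The activators (7 of 21) and the hemidesmosome and tetraspanin genes (3 of 9) were above it in HepG2. In Huh7 these 5 of 21 and 2 of 9 genes were close to it (21.9%). The laminin receptors other than integrins were above it in HepG2 and below it in Huh7.

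**Figure D4:**
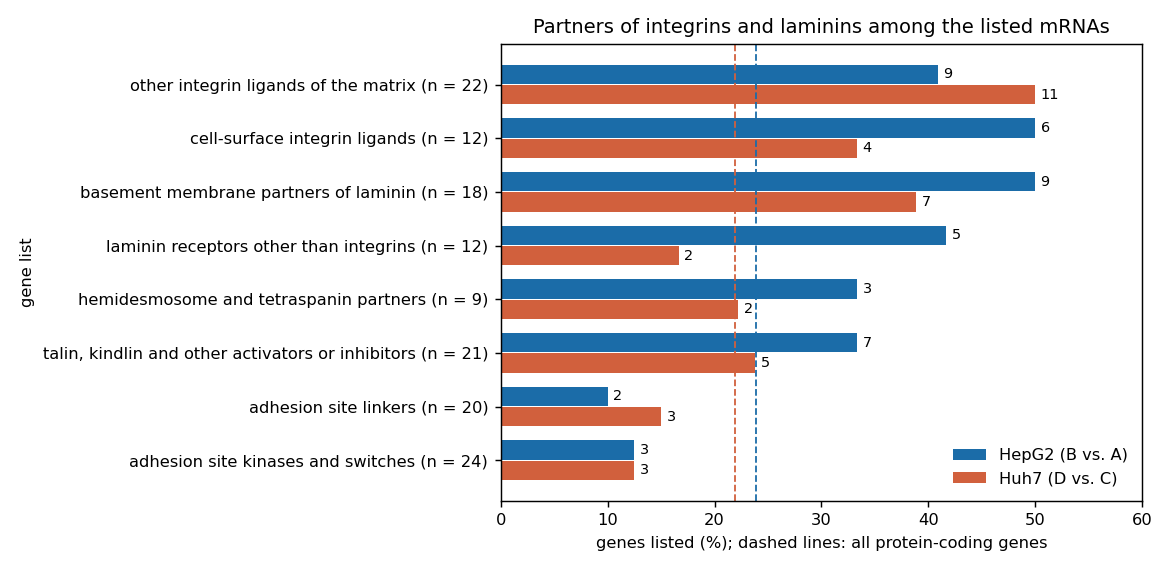
Bars give the percent of genes listed in 8 lists of integrin and laminin partners (vertical axis) for HepG2 (blue) and Huh7 (orange), with the number listed beside each bar, and dashed lines mark the percent of all protein-coding genes listed. Ligands and basement membrane partners lie above the dashed lines, and activators (7 and 5 of 21) lie above in HepG2 and close to the line in Huh7. Other laminin receptors lie above in HepG2 and below in Huh7. Linkers (2 and 3 of 20) and kinases and switches (3 and 3 of 24) lie below the lines.

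For comparison with a neighbouring matrix family, 30 of 44 collagen genes (68.2%) were listed in HepG2 and 17 (38.6%) in Huh7, with 14 in both. Of 87 cadherin and protocadherin genes, 35 (40.2%) were listed in HepG2 and 39 (44.8%) in Huh7, with 17 in both. The members, with 19 and 18, and the cadherins differed less between the lines in number than the collagens. All protein-coding genes stood at 23.9% in HepG2 and 21.9% in Huh7, so both of these families were above that share in each line, as the members were. A raised share is therefore not particular to the members. The differences between the families were not tested.

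The transcripts of these genes are long. The median of the longest annotated transcript was 5548 nucleotides over the members and 3157 over all protein-coding genes. Of the 38 members, 24 were in the longest of 4 equal-sized length bins of protein-coding genes and 13 in the next. In the longest bin 26.5% of protein-coding genes were listed in HepG2 and 23.2% in Huh7, and in the shortest bin 19.5% and 18.4%. Of the 24 members in the longest bin, 10 were listed in HepG2 and 13 in Huh7. Within the family, members in both lists had a median of 5302 nucleotides and those in neither 5479, while the medians of those listed in HepG2 only and Huh7 only were 5618 and 6569.

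Reads of most members can be placed, since in 33 of 38 genes more than 99% of the stretches of 75 bases occur in no transcript of another gene. The lowest was ITGB3 with 49.5%, as an overlapping gene model holds the rest, and ITGB6 followed with 83.7%. ITGB1 had 91.7%, ITGA1 94.9% and ITGAD 98.1%. The calls of ITGB3 and ITGB6 are therefore uncertain to the extent that the counting could split such reads.

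The promoters of the members ranged from CpG-free to CpG-rich. RefSeq promoter windows of 300 bases (250 before and 50 after the annotated start, GRCh38.p14) were matched for 26 of the 38 members. In 19 of the 26 the first 30 bases after the start stood in an annotated transcript of the gene, and in 7 they did not, LAMB4 among them. The CpG ratio, the number of CpG pairs over that expected from the C and G content, is high in promoters of broadly expressed genes and low in many tissue-restricted ones. The 250 bases before the start are shown for some of the genes, with CpG pairs in capitals. In each family these had the lowest ratio among members in both lists and the highest among those in neither. The contrast between them was therefore set by this choice. LAMB1 (0.93, HepG2 only) and LAMC1 (0.88, Huh7 only) had higher ratios than ITGB1 (0.85) and LAMA5 (0.81), which are shown.
ITGB6, in both lists, chr2:160200273-160200522, minus strand: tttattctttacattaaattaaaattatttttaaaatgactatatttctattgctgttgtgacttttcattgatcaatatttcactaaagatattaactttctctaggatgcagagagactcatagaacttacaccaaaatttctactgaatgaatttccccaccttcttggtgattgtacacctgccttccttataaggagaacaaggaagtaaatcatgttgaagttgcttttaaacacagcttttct
LAMB4, in both lists, chr7:108130362-108130611, minus strand: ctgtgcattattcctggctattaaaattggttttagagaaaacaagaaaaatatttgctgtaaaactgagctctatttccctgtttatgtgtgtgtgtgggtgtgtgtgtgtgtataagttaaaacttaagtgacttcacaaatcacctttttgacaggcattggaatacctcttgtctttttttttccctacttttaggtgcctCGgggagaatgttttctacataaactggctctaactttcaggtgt
ITGB1, in neither list, chr10:32958231-32958480, minus strand: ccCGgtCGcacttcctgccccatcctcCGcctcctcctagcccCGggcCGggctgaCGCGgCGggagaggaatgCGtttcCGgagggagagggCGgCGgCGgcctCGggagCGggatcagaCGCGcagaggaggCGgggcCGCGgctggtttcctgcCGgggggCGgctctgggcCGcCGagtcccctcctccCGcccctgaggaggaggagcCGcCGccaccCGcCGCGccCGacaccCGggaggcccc
LAMA5, in neither list, chr20:62367313-62367562, minus strand: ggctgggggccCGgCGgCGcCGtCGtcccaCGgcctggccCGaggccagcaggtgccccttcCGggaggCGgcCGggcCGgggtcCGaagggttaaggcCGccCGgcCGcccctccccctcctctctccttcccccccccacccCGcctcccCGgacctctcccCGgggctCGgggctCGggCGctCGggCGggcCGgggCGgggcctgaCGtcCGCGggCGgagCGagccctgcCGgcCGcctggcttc

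In these 250 bases ITGB6 had 0 CpG pairs and LAMB4 had 1, and ITGB1 and LAMA5 had 32 each. Over the full windows, the 7 members in both lists with a promoter had a median CpG ratio of 0.17. The 7 members in neither list had a median of 0.60, and the 6 members listed in HepG2 only and the 6 in Huh7 only had 0.69 and 0.46. Over the windows that matched a transcript, the median was 0.27 for the 4 members in both lists and 0.60 for the 7 in neither, with 0.78 and 0.46 for the 4 in HepG2 only and the 4 in Huh7 only. Over all protein-coding promoters the medians were 0.71 for genes in both lists and 0.79 for genes in neither. The spread within the classes was wide. The median of members in HepG2 only was above that of members in neither list, ITGA1 (0.67) and ITGA11 (0.75) were in both lists with high ratios, and ITGAE and LAMB3 (0.36 each) were in neither with low ones. Of the 12 members with a ratio above 0.6, 6 were listed in HepG2 and 4 in Huh7, and of the 14 at or under it, 7 and 9. The HepG2 share was thus 50% in each class, while the Huh7 share was higher at or under 0.6. On so few genes this was not tested. At a ratio of 0.6 or under, 26.7% of protein-coding genes with a promoter were listed in HepG2 and 26.3% in Huh7, and above it 22% and 19%. Among 5 motifs searched on both strands, the GC box GGGCGG, which itself contains a CpG pair, stood in 14 of the 26 members (53.8%) and in 59.5% of all protein-coding promoters. By listing it stood in 1 of 7 members in both lists, 3 of 6 in HepG2 only, 4 of 6 in Huh7 only and 6 of 7 in neither. Over protein-coding genes it stood in 58.5% of those in both lists and 59.8% of those in neither, so no such split was seen there. Among the members, 3 of the 7 windows in both lists matched no annotated transcript, and 0 of the 7 in neither. For members in HepG2 only and in Huh7 only it was 2 of 6 each. The motif counts were not repeated on matched windows. The other motifs were TGANTCA in 2 members (7.69%, against 5.78% of all promoters), CCAAT in 4 (15.4%, against 36.4%), TATAAA in 1 (3.85%, against 9.37%) and CACGTG, which also contains a CpG pair, in 1 (3.85%, against 8.94%). A gene may start elsewhere in these cells than at the annotated position, and a match is not a bound site.

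**Figure D5:**
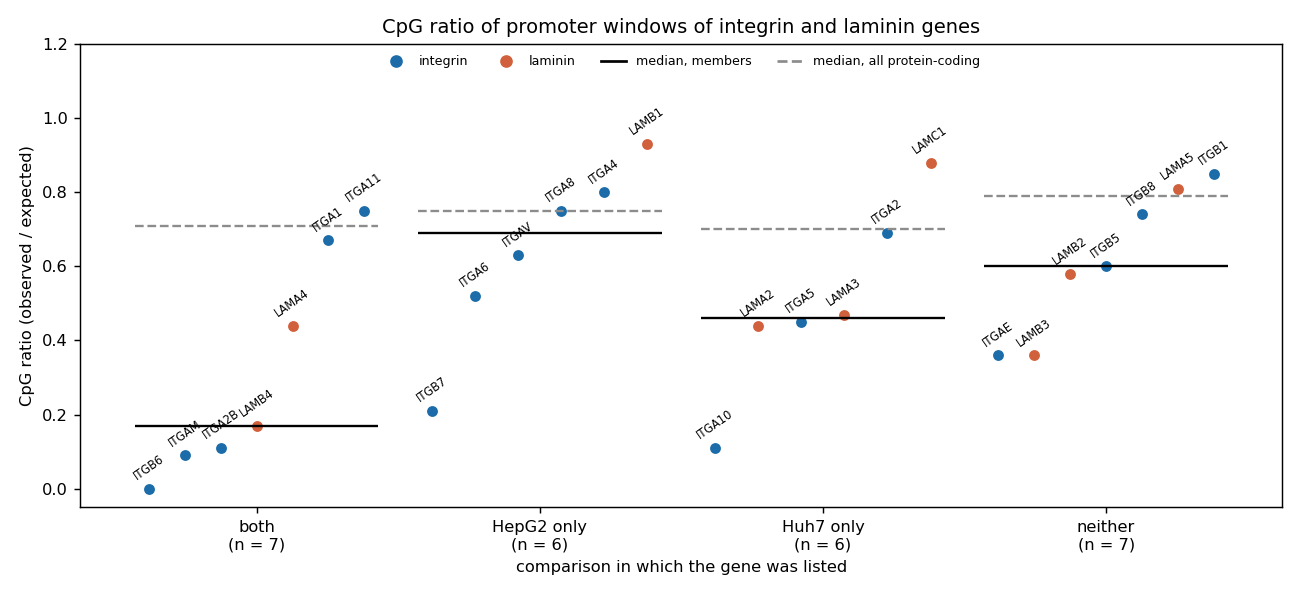
Points give the CpG ratio of the promoter window (vertical axis) of each integrin (blue) and laminin gene (orange) by the comparison in which it was listed (horizontal axis), with solid lines at the members' medians and dashed lines at the medians of all protein-coding genes. Members in both lists range from 0.00 for ITGB6 to 0.75 for ITGA11, and those in neither from 0.36 to 0.85.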

How the data were processed

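RNA of 4 libraries, 1 per group, was sequenced by the authors, and the submitters' processing notes name HISAT2, StringTie 1.3.1, Cuffdiff 2.1.1 and Bowtie2 2.2.8. The genome build and annotation are not given in the sources used here. The study's methods name Cuffdiff for the calls, while its results name another tool. The deposited values used here are numbers of genes, listed and background, in 2 GO and 2 KEGG tables, with the identifiers of the listed genes. The p-values in these tables are the authors' own enrichment tests and were not used. Library depths are not given in these tables.

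Identifiers were matched to GENCODE release 29 protein-coding genes, and the union over all GO rows gave each list (4783 genes in HepG2 and 4369 in Huh7 cells). The members and gene lists were chosen with earlier results of these data known, and pairs, trimers and roles are textbook knowledge. The counts cover all 38 members. Results for 1 member and for some partner and marker genes are not reported here by name. The other members are named, and partner genes are given as counts per list, naming those listed in both lines or in a single line; the partner genes named as listed in neither are examples chosen after the listings were seen. Counting was checked on a planted list. Scripts used Python 3.11.15 and matplotlib 3.10.9. No differences between conditions were tested.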

Additional observations from a re-analysis of the deposited data

How the results depend on the processing

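Alternatives were run for the counts of members, integrins, laminins, complete pairs and complete trimers and for the share of protein-coding genes, and for no other result. Of 46 recomputed values, 11 could not change by construction (0 genes to restore under the complement row, ITGA2B left out of laminin counts, genes left out of a count of 0). Of the other 35, 34 stayed within 1.5 times the reported value. The exception was the HepG2 pairs with both subunits listed, 1 in place of 4 without ITGB3 and ITGB6. Many of the 35 had little room to change. Leaving out ITGA2B can move a count by at most 1, and the GO and KEGG tables annotate the same authors' calls. That these values stayed is therefore no evidence that the calls are robust. The KEGG tables in place of the GO tables, and both together, gave the reported 19, 18, 10 and 11 members (HepG2, Huh7, both and neither). Leaving out ITGA2B gave 18, 17, 9 and 11. Alternatives chosen after seeing the data were that without ITGB3 and ITGB6, ITGAM, ITGAX and ITGAD counted as 1 gene, which gave 17 in each line, and the leukocyte integrins left out, which gave 15 in each. No replicate can be left out with 1 library per group. No paired analysis was possible because each group has 1 library and the tables hold no value per library. The numbers rest on calls without replicates, and how depth limits them is not known.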
